A study of Mus musculus with 7 samples.

Results

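The genes described here are 10 early response genes measured in bleomycin-treated mouse skin: Egr1, Egr2 and Egr3, Klf2, Klf4 and Klf6, Ier2 and Ier3, Dusp1 and Nr4a1. They were picked by gene symbol out of 23185 named genes, and each had 1 probe set, whose identifier is the gene's Entrez number (16598_at for Klf2, 13655_at for Egr3). Klf2 and Egr3 had been noted in these same arrays for genotype differences in opposite directions. The differences between genotypes in all 10 genes are therefore given as a description, without a test.

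RNA came from lesional skin of male C57BL/6 mice 9 weeks old, all injected with bleomycin for 3 weeks. The genotypes were ox40l-/- (knockout, 4 arrays) and ox40l+/+ (wild type, 3 arrays). OX40L is a costimulatory ligand of the tumour necrosis factor family, and bleomycin injection is a common way to induce skin fibrosis. The title of the series concerns protection from fibrosis driven by inflammation. No skin without bleomycin was analysed here, so the response of these genes to bleomycin is not measured, and the labels give neither the design of the ox40l allele nor whether each array is a separate animal. The p-values below therefore cover the spread among these 7 samples alone, part of which may be technical.

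Immediate early genes are switched on within minutes of a stimulus, without new protein synthesis, when MAP kinases act on factors such as SRF with its ternary complex partners, CREB and MEF2. Some encode transcription factors: the EGR and KLF proteins bind GC-rich or CACCC-like DNA through zinc fingers, and NR4A1 is an orphan nuclear receptor. Others encode regulators, such as the MAP kinase phosphatase DUSP1. In skin, KLF4 is needed for the epidermal barrier, EGR1 is induced by TGF-beta in fibroblasts, and EGR2 and EGR3 act in T cell tolerance. KLF2 maintains quiescence of endothelium and of resting T cells. Their transcripts are mostly short-lived.

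Wild type replicates 1 and 3 stood apart from the rest. Replicate 1 had the widest spread of log2 values over probe sets (SD 1.72) and replicate 3 the narrowest (1.22), against 1.38 to 1.48 on the other 5. Wild type replicate 2 and the 4 knockout arrays are called the 5 alike arrays below, since the pairs among them correlated at r of 0.956 to 0.968 across probe sets. Markers of keratinocytes and fibroblasts fitted the labelled tissue: 13 of 14 were above the array's median value on all 7 arrays, and Pdgfra was the exception. Over all genes, 1 passed limma at an adjusted p under 0.05.

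Most of these early genes were highest on a single array. Wild type replicate 1 held the highest value of the 7 arrays in 7 of the 10 genes (Egr1, Egr2, Egr3, Klf4, Klf6, Ier2 and Ier3), where it did so in 25.3% of all genes. In 5 of them (Egr1, Egr2, Egr3, Klf4 and Ier3) it exceeded every other array by at least 1 log2 unit, as in 5.63% of all genes. These shares are not matched for level, and 9 of the 10 genes lay above the median of all genes. Klf2 had its lowest value on that same array. The mean was lower in knockout in 7 genes and higher in 3 (Klf2, Klf6 and Dusp1), while 48.3% of all genes had the lower mean in knockout. The median difference was -0.28 over the 10 genes and 0.01 over all genes. The genotypes overlapped in every one of the 10, against 1.91% of all genes in which they did not. These counts use the contrast in which Klf2 and Egr3 were noticed, and nothing is read from them.

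**Figure D1:**
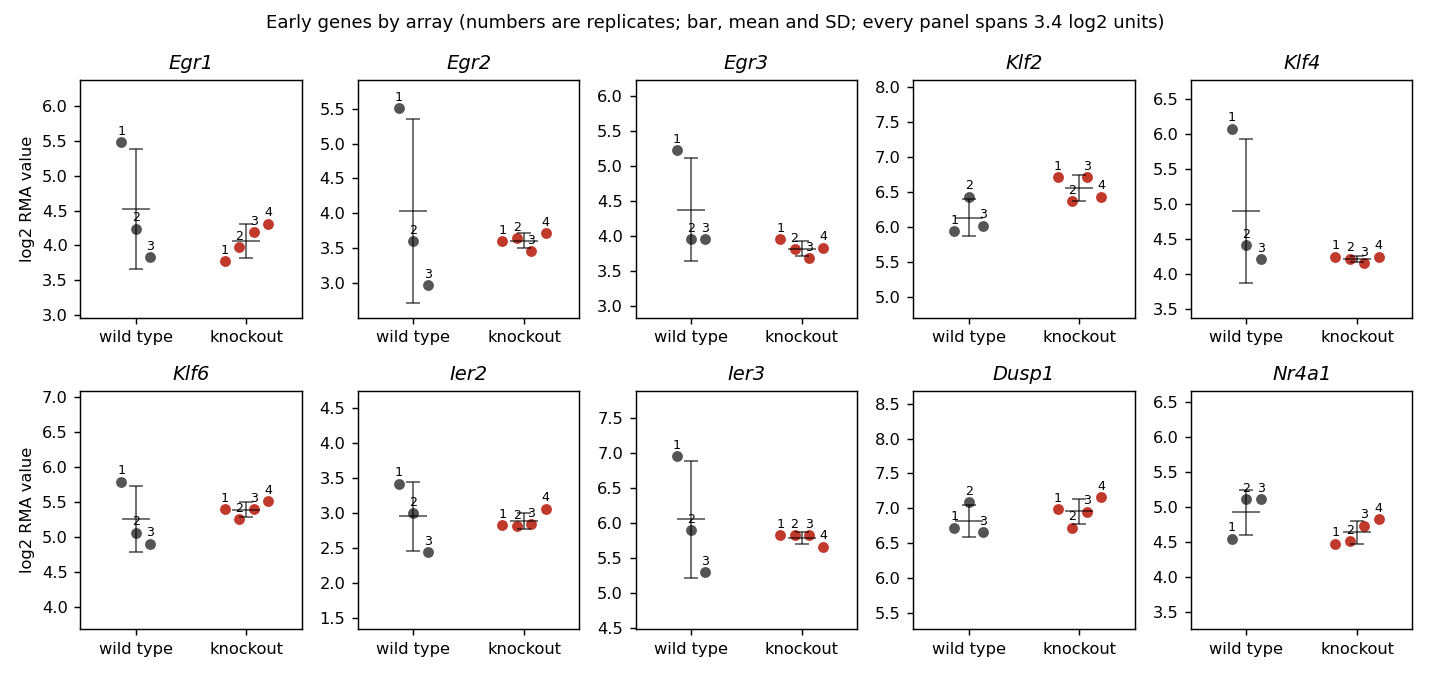
Log2 RMA values (y axis) of the 10 early genes on the 3 wild type and 4 knockout arrays (x axis), 1 panel a gene. Numbers are replicates, and the bar and whiskers are the mean and SD. Wild type replicate 1 stands above all other arrays in Egr1, Egr2, Egr3, Klf4 and Ier3, while Klf2 is lowest there.

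Egr3 was the member noted for a lower value in knockout. Its log2 value was 5.22 on wild type replicate 1 and 3.95 on both other wild type arrays, which had an identical value. The knockout arrays were at 3.95, 3.81, 3.68 and 3.83 for replicates 1 to 4. Apart from wild type replicate 1, the arrays lay close together, and knockout replicate 1 was marginally above the lower wild type arrays, so the genotypes overlapped. The means were 4.37 ± 0.74 (SD, n = 3) in wild type and 3.81 ± 0.11 (SD, n = 4) in knockout, a difference of -0.56, or 0.68-fold. Without wild type replicate 1 the difference was -0.13. Within the 5 alike arrays the range of Egr3 was 0.27.

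Egr1, the growth factor-responsive regulator of the family, behaved alike on wild type replicate 1. It was at 5.48, 4.24 and 3.83 on wild type replicates 1, 2 and 3, and at 3.78, 3.98, 4.19 and 4.31 on the knockout arrays. Wild type replicate 3 fell inside the knockout range. The difference of the means was -0.45 (4.52 ± 0.86, SD, n = 3, in wild type and 4.07 ± 0.24, SD, n = 4, in knockout), and it was 0.03 without wild type replicate 1.

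Egr2, which also drives myelination in Schwann cells, spanned the widest range of the family. It was at 5.51, 3.61 and 2.98 on the wild type arrays and at 3.61, 3.64, 3.46 and 3.72 on the knockout arrays. The wild type arrays held both its highest and its lowest value, with the knockout arrays between them. Its difference was -0.42 over all arrays, 0.32 without wild type replicate 1 and -0.95 without wild type replicate 3.

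Klf2, the endothelial and T cell factor, went the other way. The wild type arrays were at 5.94, 6.43 and 6.02, and the knockout arrays at 6.71, 6.37, 6.71 and 6.43. Wild type replicates 1 and 3 lay below all other arrays, while wild type replicate 2 had the same value as knockout replicate 4 and exceeded knockout replicate 2. The means were 6.13 ± 0.26 (SD, n = 3) in wild type and 6.56 ± 0.18 (SD, n = 4) in knockout, a difference of 0.42, or 1.34-fold. It stayed between 0.33 and 0.57 with single arrays left out and was 0.12 without both wild type replicates 1 and 3, the arrays that stood apart over all genes.

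The rank of Klf2 among all probe sets of an array gives another view of wild type replicate 3. Klf2 stood at the 88.1 percentile of wild type replicate 1, the 94.5 of replicate 2 and the 95.8 of replicate 3, and between the 94.5 and the 96.4 on the knockout arrays. By rank, wild type replicate 3 was inside the knockout range, and wild type replicate 1 alone was below it. The difference in normal scores of ranks was 0.30.

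Klf4, the epidermal differentiation factor, had the largest genotype difference of the 10 genes under the deposited scale. It was at 6.08, 4.41 and 4.21 on the wild type arrays and at 4.25, 4.22, 4.16 and 4.25 on the knockout arrays. The knockout values were nearly level (SD 0.04), and wild type replicate 3 lay among them. The difference was -0.68 (0.62-fold; 4.90 ± 1.03, SD, n = 3, in wild type and 4.22 ± 0.04, SD, n = 4, in knockout), and it was -0.09 without wild type replicate 1.

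Klf6, a widely expressed family member induced by injury, was at 5.79, 5.06 and 4.90 in wild type and at 5.39, 5.25, 5.39 and 5.51 in knockout. The wild type arrays lay on both sides of the knockout arrays. Its mean difference of 0.14 was 0.41 without wild type replicate 1 and -0.04 without replicate 3.

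RefSeq promoters (assembly GRCm38.p6) were at hand for 7 of the 10 genes, in 11 windows, because Egr2 has 5 listed starts. The 250 bases before the start are shown for Klf2, the gene that was lowest on wild type replicate 1, and for Egr2, Klf4 and Ier3, which were among those that exceeded all other arrays there. They read 5′ to 3′ on the gene's strand: Klf2 is chr8:72318812-72319061, plus strand; Egr2, from one of 3 overlapping windows, is chr10:67537619-67537868, plus strand; Klf4 is chr4:55532476-55532725, minus strand; Ier3 is chr17:35821463-35821712, plus strand. Capitals mark a MEF2 site in Klf2 and a CArG box, the sequence bound by SRF, in Egr2.
Klf2: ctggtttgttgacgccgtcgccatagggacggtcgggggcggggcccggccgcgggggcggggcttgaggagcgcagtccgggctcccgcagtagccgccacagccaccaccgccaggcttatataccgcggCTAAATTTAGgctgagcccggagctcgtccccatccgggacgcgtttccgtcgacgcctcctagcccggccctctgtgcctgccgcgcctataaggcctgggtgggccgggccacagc
Egr2: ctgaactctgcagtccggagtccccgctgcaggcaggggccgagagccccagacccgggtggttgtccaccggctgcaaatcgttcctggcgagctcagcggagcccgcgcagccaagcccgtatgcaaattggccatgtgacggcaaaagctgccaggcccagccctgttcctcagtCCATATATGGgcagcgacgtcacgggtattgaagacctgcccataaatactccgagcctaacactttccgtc
Klf4: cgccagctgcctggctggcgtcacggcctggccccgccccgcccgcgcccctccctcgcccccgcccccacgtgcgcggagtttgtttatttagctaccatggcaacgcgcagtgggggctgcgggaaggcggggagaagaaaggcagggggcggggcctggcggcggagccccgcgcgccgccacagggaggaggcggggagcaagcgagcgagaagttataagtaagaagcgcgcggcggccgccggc
Ier3: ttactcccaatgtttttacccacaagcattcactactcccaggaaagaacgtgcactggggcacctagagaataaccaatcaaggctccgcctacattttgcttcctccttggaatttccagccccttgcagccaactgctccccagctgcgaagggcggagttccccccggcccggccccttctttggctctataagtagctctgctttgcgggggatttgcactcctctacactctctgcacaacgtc

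A fixed set of motifs was searched on both strands of the 250 bases. The MEF2 site of Klf2 begins 118 bases before the start, and such a site is in 3.42% of 27025 genes with a listed promoter. The CArG box of the printed Egr2 window begins 72 bases before the start. A second one, CCTTTTTTGG, is in another Egr2 window, and 1.62% of genes hold a CArG box. The cyclic AMP response element TGACGTCA was found in Dusp1, 143 bases before the start, and is in 1.77% of genes. The GC box (GGGCGG, or CCGCCC on the other strand) was in all 7 genes and in 35.4% of all genes. These shares are not matched for base composition. The windows of the 7 genes were 54.0% to 74.4% G and C, and the median of all windows was 52.4%. Some of the copies in Klf4 overlap each other by a base. Of the other immediate early genes listed for comparison, 39 had a promoter, and 34 of them held a GC box, 5 the cyclic AMP response element, 3 a MEF2 site and 1 a CArG box. Klf4 and Ier3 had neither a CArG box nor a MEF2 site in these 250 bases, and sites farther away were not searched. Egr1, Egr3 and Ier2 had no promoter at hand. The part of these motifs in the array values was not tested. A match is a stretch of letters and not a measured binding site.

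Ier3, a stress-induced survival protein, was at 6.96, 5.91 and 5.30 on the wild type arrays. Knockout replicates 1, 2 and 3 shared the value 5.83 and replicate 4 was at 5.67. Its highest and lowest values were again both wild type. The difference of -0.27 was 0.18 without wild type replicate 1 and -0.65 without replicate 3. Ier2, a nuclear regulator, was the dimmest of the 10 and the one gene with a mean below the median of all genes. It was at 3.42, 3.00 and 2.44 in wild type and at 2.83, 2.81, 2.84 and 3.06 in knockout. The difference of -0.07 was 0.17 without wild type replicate 1, and -0.32 without wild type replicate 3.

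Dusp1 and Nr4a1 did not share the high value on wild type replicate 1. Dusp1, the phosphatase that switches off p38 and JNK, was at 6.73, 7.09 and 6.66 in wild type and at 6.99, 6.73, 6.95 and 7.16 in knockout. Its arrays were interleaved, and the difference was 0.13, or -0.13 without wild type replicates 1 and 3.

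Nr4a1, induced by antigen receptor signalling among other stimuli, was at 4.55, 5.12 and 5.11 in wild type and at 4.48, 4.52, 4.74 and 4.83 in knockout. Wild type replicates 2 and 3 lay above all knockout arrays, and wild type replicate 1 lay inside the knockout range. The difference was -0.29 over all arrays and -0.47 without wild type replicate 1. Of the 7 lower genes it was the only one whose difference became more negative without that array. By percentile within the array, Nr4a1 was at 71.3 on wild type replicate 1, at 84.0 and 87.7 on replicates 2 and 3, and between 73.7 and 79.7 in knockout.

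**Figure D2:**
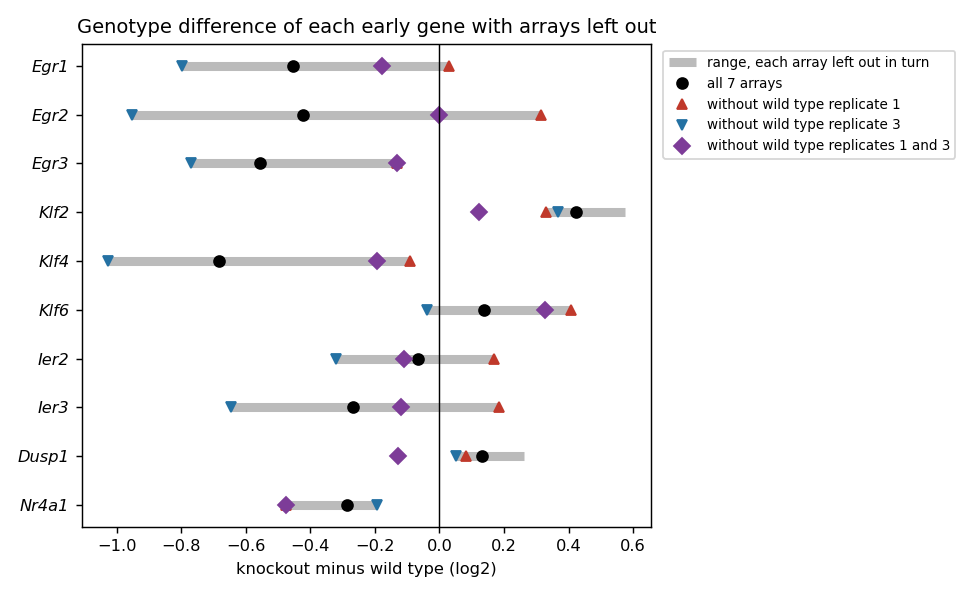
Knockout minus wild type difference in log2 units (x axis) of each early gene (y axis). Black circles use all 7 arrays, coloured symbols leave out wild type replicate 1, replicate 3 or both, and grey bars give the range over the 7 runs that leave out 1 array. The difference of Egr2 runs from -0.95 to 0.32, and that of Klf2 stays above 0.

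Without wild type replicate 1, 3 of the 10 genes had the lower mean in knockout (Egr3, Klf4 and Nr4a1), in place of 7. The sign of Egr1, Egr2, Ier2 and Ier3 turned without that array, and that of Klf6 turned without wild type replicate 3. Without wild type replicates 1 and 3 together, 8 genes were lower, with the lone wild type array as the group. The largest differences were then -0.48 in Nr4a1 and 0.33 in Klf6, and that of Egr2 was -0.001.

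The code of each sample in the labels either has or lacks a suffix h of unstated meaning, and both sets hold both genotypes. Among the arrays without it (wild type replicates 1 and 3, knockout replicates 1 and 4) Klf2 differed by 0.59 and Egr3 by -0.70. Among those with it (wild type replicate 2, knockout replicates 2 and 3) the differences were 0.11 and -0.21. The directions of Egr1, Egr2, Egr3, Klf2, Klf4, Klf6, Ier3 and Nr4a1 were the same in both sets. Dusp1 was 0.38 without the suffix and -0.25 with it, and Ier2 was 0.02 and -0.17. Both arrays that stood apart lack the suffix.

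Variation within a genotype was unequal. The median SD of the 10 genes was 0.61 in wild type and 0.11 in knockout, while over all genes it was 0.39 and 0.19. Among the 5 alike arrays the median SD of the 10 genes was 0.14 and that of all genes 0.20. The steadiest there was Ier3 (SD 0.09) and the most variable Nr4a1 (0.26), at the 15.1 and 66.7 percentiles of all genes. No array among these 5 showed the joint rise of Egr and Klf4 values that was present on wild type replicate 1.

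The genes that were high together on wild type replicate 1 covaried less evenly on the other arrays. Over 7 arrays, the 10 pairs among Egr1, Egr2, Egr3, Klf4 and Ier3 had r between 0.88 and 0.99, with Egr3 and Klf4 the closest. Over the 5 alike arrays the same pairs ran from -0.55 to 0.78, and 1 of the 10 reached 0.7. Of all 45 pairs of members, 19 had r of at least 0.7 over 7 arrays, 8 without wild type replicate 1 and 6 over the 5 alike arrays. Klf2 ran from -0.68 (with Egr3) to 0.66 (with Dusp1) against the other members. Egr1, Egr2, Egr3, Klf4 and Ier3 were grouped by their high value on wild type replicate 1. Their high r over 7 arrays follows from that choice, and so does the fall without that array. These values describe 7 points that share the arrays' differences in spread.

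**Figure D3:**
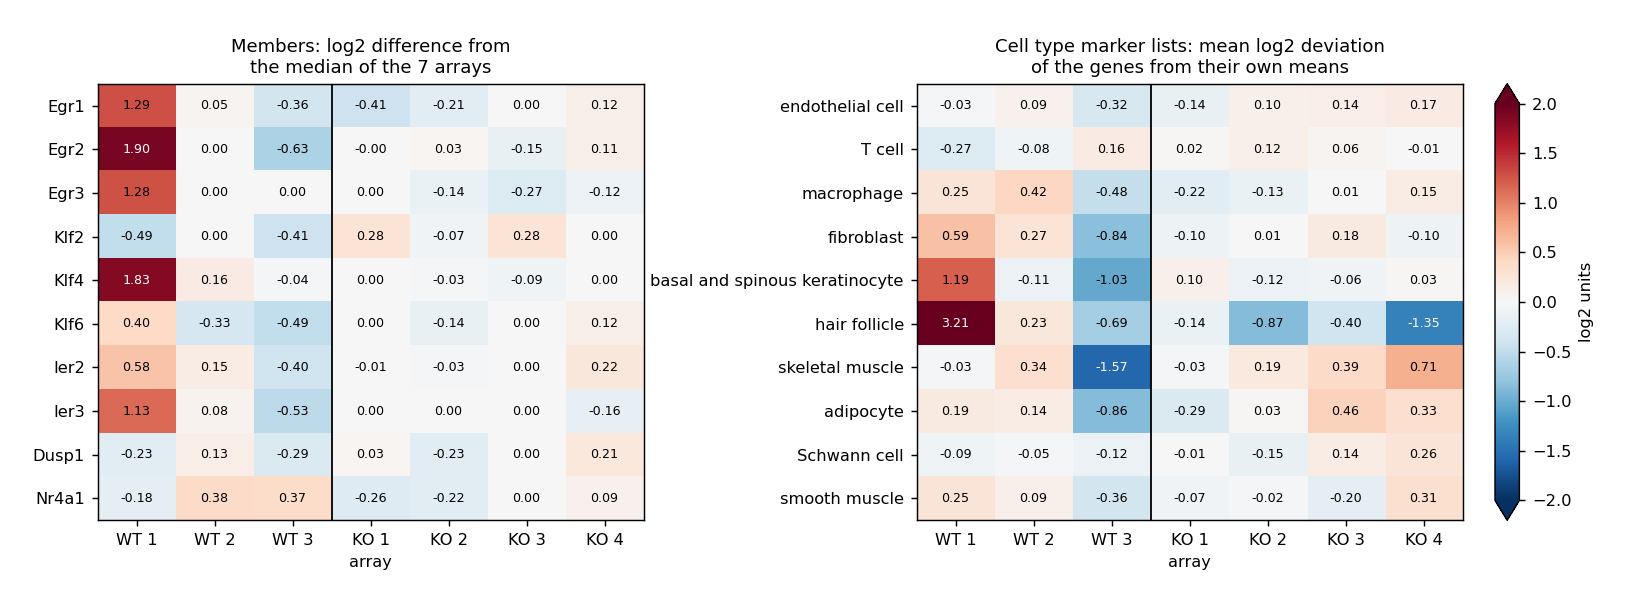
Left, log2 difference of each early gene from its median over the 7 arrays (columns). Right, mean log2 deviation of each cell type marker list on the same arrays. Colours saturate at 2 log2 units. Wild type replicate 1 is high for Egr1, Egr2, Egr3, Klf4 and Ier3 as well as for keratinocyte (1.19) and hair follicle (3.21) markers.

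Cell type markers moved between arrays too. In bulk skin, fewer cells of a type and less RNA per cell cannot be told apart. Hair follicle markers (8 of 9 listed had a row) were all lower on average in knockout, with a list score of 3.21, 0.23 and -0.69 on wild type replicates 1, 2 and 3 and from -1.35 to -0.14 in knockout. Their median difference was -1.45, and -0.36 without wild type replicate 1. Keratinocyte markers (7 of 7) scored 1.19, -0.11 and -1.03 in wild type and from -0.12 to 0.10 in knockout, and fibroblast markers (7 of 7) 0.59, 0.27 and -0.84, with -0.10 to 0.18 in knockout. The high Egr, Klf4 and Ier3 values on wild type replicate 1 came with high hair follicle and keratinocyte scores, and the part of these markers in the result was not tested.

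Lists for the cells in which KLF2 and the EGR factors are best known varied less. Endothelial markers (8 of 8) scored -0.03, 0.09 and -0.32 in wild type and from -0.14 to 0.17 in knockout. T cell markers (7 of 8) scored -0.27, -0.08 and 0.16 in wild type and from -0.01 to 0.12 in knockout. Of the 7 T cell markers, 3 lay above the median level of all genes. The array medians were 3.45 on wild type replicate 1 and 3.74 on replicate 3, and their part in these scores was not tested. Wild type replicate 3, on which Klf2 was low in log2 units, had the lowest endothelial score but the highest T cell score. Replicate 1, on which Klf2 was lowest, had the lowest T cell score and an endothelial score inside the knockout range. Knockout replicates 1 and 3, with nearly equal and highest Klf2 values (6.71 on both), had endothelial scores of -0.14 and 0.14. The part of these markers in the Klf2 values was not tested. Schwann cell markers (3 of 5) lay between -0.15 and 0.26 on all arrays and macrophage markers (6 of 7) between -0.48 and 0.42. Skeletal muscle (8 of 8), adipocyte (5 of 6) and smooth muscle (5 of 5) lists had their lowest scores on wild type replicate 3, at -1.57, -0.86 and -0.36. All 8 skeletal muscle markers had the higher mean in knockout, with a median difference of 0.70, and 1.04 without wild type replicate 1.

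Genes around these 10 in the same pathways were taken from 8 lists. Of 131 with a row, 52 had the higher and 79 the lower mean in knockout. With limma 0 of them passed at an adjusted p under 0.05 (the smallest was 0.9995), against 0.00431% of all genes, and 0 had an unadjusted p under 0.05, against 1.88% of all genes. Only 1 gene of all those tested passed, so a list with no gene past the threshold says nothing particular of that list. The median difference of the 131 was -0.04. Wild type replicate 1 was the highest array in 61 of the 131 (46.6%). The genotypes did not overlap in 3 of them, or 2.29% against 1.91% of all genes. Those 3, singled out after their values were seen, were Klf16 (0.12), Creb1 (-0.51) and S1pr1 (0.33). For the 24 genes named from these lists, leaving out wild type replicate 1 turned the sign or moved the difference by over 1.5 times in 17, and leaving out wild type replicate 3 did so in 14. Leaving out wild type replicate 2 or any 1 knockout array did so in 1 to 3.

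**Figure D4:**
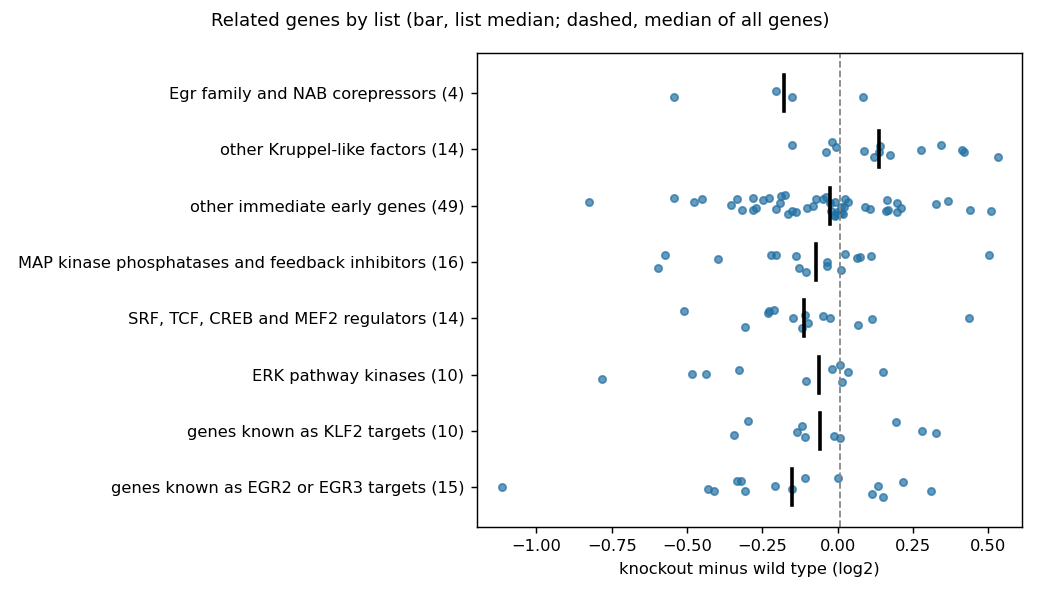
Knockout minus wild type difference in log2 units (x axis) of genes related to the 10 early genes, by list (y axis, number of genes in brackets). Points are genes, black bars list medians, and the dashed line the median of all genes at 0.01. Other Kruppel-like factors have a median of 0.14, and the other lists have medians from -0.18 to -0.02.

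Partners of the EGR factors were few. In the list of Egr4, Wt1 and the NAB corepressors, which bind EGR proteins and restrain them, 1 of 4 had the higher and 3 the lower mean in knockout, and none passed (median -0.18). Nab1 was at 5.68, 4.56 and 4.53 in wild type and between 4.12 and 4.57 in knockout (difference -0.54, SE 0.30, limma adjusted p = 0.9995). It too was highest on wild type replicate 1, without which it differed by -0.17. Nab2, itself an EGR target, differed by -0.15 (SE 0.18) and Wt1, a related zinc finger factor, by -0.20 (SE 0.23). The difference of Wt1 was -0.46 without wild type replicate 1 and 0.02 without replicate 3, and that of Nab2 was -0.05 without replicate 3.

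Among other Kruppel-like factors, 10 of 14 had the higher mean in knockout and 4 the lower, with a median of 0.14, and none passed. Klf9, a glucocorticoid-responsive factor, differed by 0.28 (SE 0.19), Klf14 by 0.41 (SE 0.31) and Klf1, the erythroid factor, by 0.34 (SE 0.26; limma adjusted p = 0.9995 for each). Klf1 and Klf14 had their lowest values on wild type replicate 1 (2.91 and 3.36), and without it differed by 0.05 and 0.11.

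Of 49 other immediate early genes, 19 had the higher and 30 the lower mean in knockout, none passed, and the median was -0.02. Zfp36l1, an RNA-binding protein that destabilises AU-rich transcripts, was at 7.95, 6.25 and 6.28 in wild type and between 5.76 and 6.25 in knockout (difference -0.83, SE 0.43, limma adjusted p = 0.9995; -0.26 without wild type replicate 1). Fos, the AP-1 subunit that often rises together with Egr1, was at 2.98, 3.26 and 3.16 in wild type and between 2.52 and 2.99 in knockout (difference -0.32, SE 0.16, limma adjusted p = 0.9995). On wild type replicate 1, where Egr1 was highest, Fos was 0.04 and Junb 0.38 above the median of the other arrays, while Jun was 0.94 and Egr1 1.40 above it. Fos was dim, below the array's median value (3.45 to 3.74) on every array. Its values therefore cannot show whether it rose with Egr1. Tnfaip3, an inhibitor of NF-kB, differed by -0.35 (SE 0.21).

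Several upstream and feedback genes were also highest on wild type replicate 1. They were 8 of 16 phosphatases and feedback inhibitors, 8 of 14 transcriptional regulators and 8 of 10 ERK pathway genes. Over all genes the share was 25.3%, which is not matched for level, and most genes of these lists lay above the median level. Elsewhere the counts were 9 of 15 EGR2 or EGR3 targets and 22 of 49 other immediate early genes. They were 3 of 14 other Kruppel-like factors, 2 of 10 KLF2 targets and 1 of 4 EGR partners. Among markers they were 8 of 8 for hair follicle, 6 of 7 for keratinocytes and 0 of 7 for T cells. In the list of MAP kinase phosphatases and feedback inhibitors, 6 of 16 had the higher and 10 the lower mean in knockout (median -0.07, none passed). Dusp6, an ERK phosphatase and readout of ERK signalling, was at 6.40, 4.33 and 3.82 in wild type and between 4.12 and 4.33 in knockout (difference -0.60, SE 0.56; 0.18 without wild type replicate 1). Errfi1, an inhibitor of EGF receptor, differed by -0.57 (SE 0.38), and Dusp10 by 0.50 (SE 0.49). Without that array they were -0.19 and 0.81, and Dusp10 was 0.26 without wild type replicate 3.

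Among SRF, TCF, CREB and MEF2 regulators, 3 of 14 had the higher and 11 the lower mean (median -0.11, none passed). Creb1, the cyclic AMP-responsive factor, was at 6.51, 5.83 and 5.66 in wild type and between 5.32 and 5.66 in knockout, narrowly apart (difference -0.51, SE 0.22, 95% confidence interval -1.03 to 0.02, limma adjusted p = 0.9995), and its difference was -0.25 without wild type replicate 1. Mef2c differed by 0.44 (SE 0.30) and Mrtfa, an SRF coactivator, by -0.31 (SE 0.22), or -0.06 without that array. The sign of Mef2c turned without wild type replicates 1 and 3 (-0.19), and its difference was 0.16 without replicate 3 alone. Of 16 ERK pathway genes listed, 10 had a row, 4 with the higher and 6 with the lower mean (median -0.06, none passed). Braf was at 7.42 on wild type replicate 1 and between 4.95 and 5.43 on all other arrays, a difference of -0.78 (SE 0.53) that was -0.06 without that array. Nras differed by -0.48 (SE 0.47), or 0.15 without it, and Map2k5, the kinase upstream of ERK5 and MEF2, by -0.44 (SE 0.25), or -0.14 without it.

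The lists of known targets held both directions. Of 10 KLF2 targets with a row, 4 had the higher and 6 the lower mean, with a median of -0.06, and none passed. S1pr1, the receptor that guides lymphocytes out of tissue and is also endothelial, was at 4.20, 4.30 and 3.82 in wild type and between 4.30 and 4.59 in knockout, higher on every knockout array by a narrow margin (difference 0.33, SE 0.16, limma adjusted p = 0.9995). It was 0.13 without wild type replicates 1 and 3. Edn1 and Vcam1, endothelial genes that KLF2 is known to repress, differed by -0.34 (SE 0.25) and -0.30 (SE 0.22). Edn1 was at 4.11 on wild type replicate 1 and at 3.11 to 3.15 on the other 6 arrays, and its difference was -0.02 without that array. The difference of Vcam1 was -0.43 without that array and -0.06 without wild type replicate 3.

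Of 15 EGR2 or EGR3 targets, 5 had the higher and 10 the lower mean (median -0.15, none passed). Cdkn1a, the p21 cell cycle inhibitor, was at 8.66, 6.13 and 5.80 in wild type and between 5.14 and 6.35 in knockout (difference -1.12, SE 0.68, limma adjusted p = 0.9995; -0.22 without wild type replicate 1). Dgka, a diacylglycerol kinase of T cell anergy, differed by -0.43 (SE 0.29), and Tnfrsf9, which encodes the costimulatory receptor 4-1BB, by 0.22 (SE 0.16). Without wild type replicate 1 these were -0.06 and 0.07.

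The genes most like Klf2 over the 7 arrays, among 10542 genes above the median level, were Tmem201 (r = 0.99), Kctd15 (0.98), Scoc (0.98), Lysmd1 (0.97) and Rsph9 (0.95). Each of them was also lower on wild type replicates 1 and 3 than on the other 5 arrays, and over those 5 alike arrays their r with Klf2 was 0.85 to 0.98. Of the genes compared, 0.285% had r above 0.9 with Klf2. The genes most like Egr3 were Cct7, Hjurp, Psmd4, Mcam and Mbd6 (r = 0.995 to 0.997), and each had its highest value on wild type replicate 1. For Egr3, 10.3% of genes had r above 0.9, a far more common pattern on these arrays. Such likeness describes 7 points and says nothing of a shared function.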

How the data were processed

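Per the submitters' processing notes, the authors made the values with robust multi-array averaging (RMA). The authors deposited log2 expression values, 1 column for each of 7 Affymetrix arrays. No source used here gives the RMA version, the definition of the probe sets or a genome build. RMA's median polish can return the same value on several arrays. Of 25206 probe sets, 23185 had 1 gene symbol and 2021 were unnamed here. Symbols were updated through Entrez numbers in a RefSeq table (GRCm38.p6), which also gave the promoter sequences.

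The genotype comparison used limma 3.58.1 under R 4.3.3 (lmFit and eBayes, 2 groups, all 7 arrays, no filter, two-sided, Benjamini-Hochberg adjustment over 23185 genes, threshold 0.05). Differences are knockout minus wild type in log2 units, and SEs are limma's. The procedure was run on simulated normal values with the same SD for every gene and array. That run does not cover the unequal spread of these arrays. List scores are mean deviations of a list's genes from their own means over the arrays. Correlations are Pearson's r. Python 3.11.15 and matplotlib 3.10.9 were used for tables and figures.

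The 10 genes and all lists were chosen with earlier results of these data known. Named besides the 10 genes were up to 3 genes per pathway list with the smallest p, and the 5 genes most like Klf2 and most like Egr3 in pattern above the median level, without predicted genes and small RNAs. Listed genes without a row are not reported here. Alternatives were other moderation, filters, normalizations, weights, blocks, covariates and arrays left out. The number of arrays limits the precision.

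Replicate numbers in the titles are shared by both genotypes, and the labels do not say whether they pair the samples. The deviations of same-numbered samples correlated at -0.09, -0.15 and 0.03. Wild type replicates 1 and 3 stood apart, so these values cannot settle whether the numbers pair samples. The main fit used no replicate block.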

Additional observations from a re-analysis of the deposited data

Results flagged for a closer look

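Among the 4 knockout arrays, a value stood far from the other 3 in 6 of 34 genes checked, where chance gives about 1 in 20. Of the early genes these were Ier2, highest on knockout replicate 4 (3.06), and Ier3, lowest on that array (5.67), with the other 3 arrays at exactly 1 value. Of the related genes they were Nab2 (5.10, lowest) and Klf1 (3.96, highest) on knockout replicate 4, and Tnfaip3 (2.49) and Nras (5.34), both lowest on knockout replicate 3. Identical values from median polish make such gaps larger, as in Ier3 and Tnfaip3. Knockout replicates 1 and 2 also shared a value in Nab2 and in Nras, and replicates 2 and 3 did in Klf1. The rate of 1 in 20 does not allow for such ties.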

How the results depend on the processing

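The count of genes past the threshold was 1 over all genes. It was 0 with the intensity trend and robust moderation, with quantile normalization again, with centring on array medians, with normal scores of ranks, with the code suffix as a block, with the array SD as a covariate, with all probe sets, and without wild type replicates 1 and 3 together. With single arrays left out it ranged from 0 to 0. With the replicate number as a block it was 0, and that block turned the sign of none of the 10 genes. With array weights it was 4032, and 17 of the 131 pathway genes then passed, where 0 did in the other runs. The weight of wild type replicate 2 was then 75.42, against 0.11 for both other wild type arrays and 0.88 to 1.19 for the knockout arrays, and the estimation stopped before it converged, so that run compares knockout with essentially 1 wild type array.

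The number of early genes with the lower mean in knockout, 7 of 10, ranged from 3 (without wild type replicate 1) to 8 with single arrays left out. The number of pairs with r of at least 0.7, 19 of 45, ranged from 8 (without wild type replicate 1) to 21, an alternative chosen after seeing the data, and was 6 without wild type replicates 1 and 3 together. Egr3, Klf4 and Nr4a1 stayed lower and Klf2 higher in knockout under all 20 alternatives run for each. The alternatives reuse the same 7 arrays, and Klf2 and Egr3 were noted for these directions, so a kept sign is no support. Without wild type replicate 1, Egr3 differed by -0.13 and Klf4 by -0.09. Klf2 differed by 0.12 without wild type replicates 1 and 3. The sign of Dusp1 turned with array weights, and that of Ier2 with the array SD as a covariate. The dimmest gene, Ier2, was not tested under the filters on the dimmest 30% and 50%. No scaling moved the median difference of all genes by over 0.1, but single early genes moved more. With quantile normalization again and with normal scores, Egr2 went from -0.42 to -0.24 and -0.15. Ier3 went from -0.27 to -0.11 and -0.07, and Klf6 from 0.14 to 0.27 and 0.21. Nr4a1 changed little, from -0.29 to -0.31 and -0.25.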
